A study of Mus musculus with 186 samples.

Results

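The early growth response genes Egr1, Egr2, Egr3 and Egr4, and the NAB genes Nab1 and Nab2, whose proteins bind EGR factors and repress their activity, were followed through the brains of Akap11 mutant mice. They are 6 of the 28338 gene symbols in the deposited table and were taken by name, as the family of Egr2. Egr2 itself was selected on its value in these data, since it stood far below wild type in knockout striatum. The knockout and wild-type striatal values of all 6 genes are therefore given as a description, with no test. The study measured RNA by bulk sequencing. Libraries came from 6 regions, the striatum, prefrontal cortex, somatosensory cortex, hippocampus, substantia nigra and thalamus, of mice aged 4 weeks (96 libraries) or 12 weeks (90 libraries). The groups compared were wild type (WT), heterozygotes (HET, Akap11 +/-) and knockouts (KO, Akap11 -/-), with 5 or 6 libraries in each of 36 groups of region, age and genotype. The labels name no transgene or treatment in any group, and give neither how the Akap11 allele was made, nor strain nor sex. Akap11 encodes an anchoring protein that tethers protein kinase A (PKA), a kinase activated by cyclic AMP. The labels number the samples but do not say whether each came from its own animal, so p-values measure the spread between these libraries.

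EGR factors are zinc-finger proteins that bind GC-rich DNA, and their genes are immediate-early genes, transcribed within minutes of synaptic activity without new protein synthesis. Calcium and growth-factor signals reach them through the ERK kinases, which act on serum response factor (SRF) and its partner ELK1 at CArG boxes, and through PKA and other kinases that act on CREB at cyclic AMP response elements (CRE). In striatal neurons, dopamine and glutamate both drive this response. NAB1 and NAB2 have no DNA-binding domain of their own, and Nab2 is itself induced by EGR factors, which makes it part of a negative feedback loop.

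Promoter windows are shown for Egr2, the member that stood furthest from WT in KO striatum, for Egr4, a paralog that did not share that difference, and for Nab1, the member with an EGR motif in its window. Each window holds 250 bases before and 50 after a transcription start in RefSeq annotation of GRCm38.p6. Entries were matched by symbol for Egr2 (5 start sites), Egr4, Nab1 and Nab2. Capitals mark matches on either strand to a CArG box, to the CRE half-site TGACG or to the EGR motifs GCGTGGGCG and GCGGGGGCG.
Egr2, chr10:67537619-67537918, plus strand: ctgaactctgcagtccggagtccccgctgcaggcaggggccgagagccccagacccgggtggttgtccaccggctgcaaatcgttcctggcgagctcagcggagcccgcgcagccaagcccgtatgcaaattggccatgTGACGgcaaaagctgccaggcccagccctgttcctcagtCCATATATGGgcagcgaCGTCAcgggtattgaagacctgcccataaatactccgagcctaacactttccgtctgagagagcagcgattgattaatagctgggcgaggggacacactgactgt
Egr4, chr6:85513540-85513839, minus strand: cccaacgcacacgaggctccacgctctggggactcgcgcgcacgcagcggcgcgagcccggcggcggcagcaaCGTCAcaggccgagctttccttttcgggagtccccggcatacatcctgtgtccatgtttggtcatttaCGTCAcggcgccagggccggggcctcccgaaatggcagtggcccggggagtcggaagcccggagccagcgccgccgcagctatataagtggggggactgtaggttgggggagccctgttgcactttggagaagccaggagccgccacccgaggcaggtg
Nab1, chr1:52500399-52500698, minus strand: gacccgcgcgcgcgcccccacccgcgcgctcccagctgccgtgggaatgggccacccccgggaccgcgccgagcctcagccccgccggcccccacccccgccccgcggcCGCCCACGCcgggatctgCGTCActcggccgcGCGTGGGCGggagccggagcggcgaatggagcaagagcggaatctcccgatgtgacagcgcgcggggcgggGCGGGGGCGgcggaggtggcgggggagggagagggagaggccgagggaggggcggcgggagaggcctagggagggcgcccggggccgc
In the Egr2 window the capitals are, in order, a CRE half-site, a CArG box and a second CRE half-site on the other strand. Of the 5 Egr2 windows, 3 overlap one another and contain these same letters, another has a CArG box alone, and the remaining window has no match. The Egr4 window holds 2 CRE half-sites and no CArG box by these letters. The Nab1 window holds 1 CRE half-site, 2 copies of the first EGR motif and 1 of the second, while the Nab2 window has no match. Among 32851 promoter windows of the same length, 1.63% had a CArG box, 20.8% a CRE half-site, 0.612% the first EGR motif and 2.91% the second. The full CRE TGACGTCA, which contains the half-site, was in 1.79% of windows and in none of the windows matched here. A match describes the letters only. No window of Egr1 or Egr3 was searched, so motifs were not compared across the whole EGR family. Their part in the levels of these genes was not tested.

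Expected counts totalled 20.8 to 73.3 M per library (M, 1000000 counts). Akap11 stood at 5.08% to 7.99% of the WT mean in KO across the 12 sets of region and age, and every KO library lay below every WT and HET library in 12 of 12 sets. Levels are in counts per M (CPM) after TMM scaling within a region and age. Some 4-week libraries stand apart by the regional marker genes, and those of striatum, thalamus and substantia nigra are named here. Which libraries of the other regions stand apart is not listed. In striatum, KO 51, KO 161 and KO 163 had scores of 5.52, 5.82 and 4.98 for cortical and hippocampal excitatory neuron genes (mean log2(CPM + 1) of 10 genes) and WT 92 had 4.94, against 1.79 to 3.40 in the other striatal libraries of that age, HET included. In thalamus, WT 913, WT 914 and WT 23 had thalamic scores of 7.34, 7.31 and 7.35 against 8.08 to 8.39 in the other WT and KO libraries, and WT 913 had a cortical score of 5.38. In substantia nigra, WT 42, WT 92, KO 44 and KO 91 stand apart, and the library labelled WT 92 there held 46.7 CPM of Akap11, against 195 to 243 in the other WT libraries of that group. Values and counts include these libraries unless they are said to be left out. Libraries that stand apart were left out as a set only in striatum, thalamus and substantia nigra, and only at 4 weeks. Any library of mixed tissue in another region, or at 12 weeks, therefore remains in the values given without the libraries that stand apart.

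Egr2 was far lower in KO striatum than in WT or HET striatum at both ages. At 4 weeks, Egr2 measured 20.6, 28.1, 34.7, 51.1 and 67.4 CPM in the 5 WT libraries, 31.8, 34.5, 40.3, 42.4 and 72.5 in HET, and 0.918, 3.07, 4.01, 4.47 and 4.83 in KO. At 12 weeks, Egr2 measured 10.2, 20.9, 21.8, 31.4 and 35.3 CPM in WT, 11.6, 23.5, 34.8, 36.3 and 37.3 in HET, and 0.946, 1.40, 2.64, 3.92 and 6.09 in KO. The highest KO library lay below the lowest WT and the lowest HET library at each age, while WT and HET overlapped throughout. The KO mean of Egr2 was 8.57% of the WT mean at 4 weeks and 12.55% at 12 weeks. The log2 fold change of Egr2, KO against WT, was -3.53 ± 0.39 (SE) at 4 weeks and -2.99 ± 0.45 at 12 weeks. Against HET it was -3.66 ± 0.39 and -3.26 ± 0.45, from the same KO libraries. For Egr2 the 3 KO libraries with high cortical scores held 4.01, 4.47 and 4.83 CPM and the other 2 held 0.918 and 3.07. Without those 3 and WT 92, which leaves 2 KO and 4 WT libraries, the 4-week change of Egr2 was -4.33, so it was larger without the libraries that stand apart. In bulk tissue, fewer cells that express a gene and less RNA per cell cannot be told apart.

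**Figure D1:**
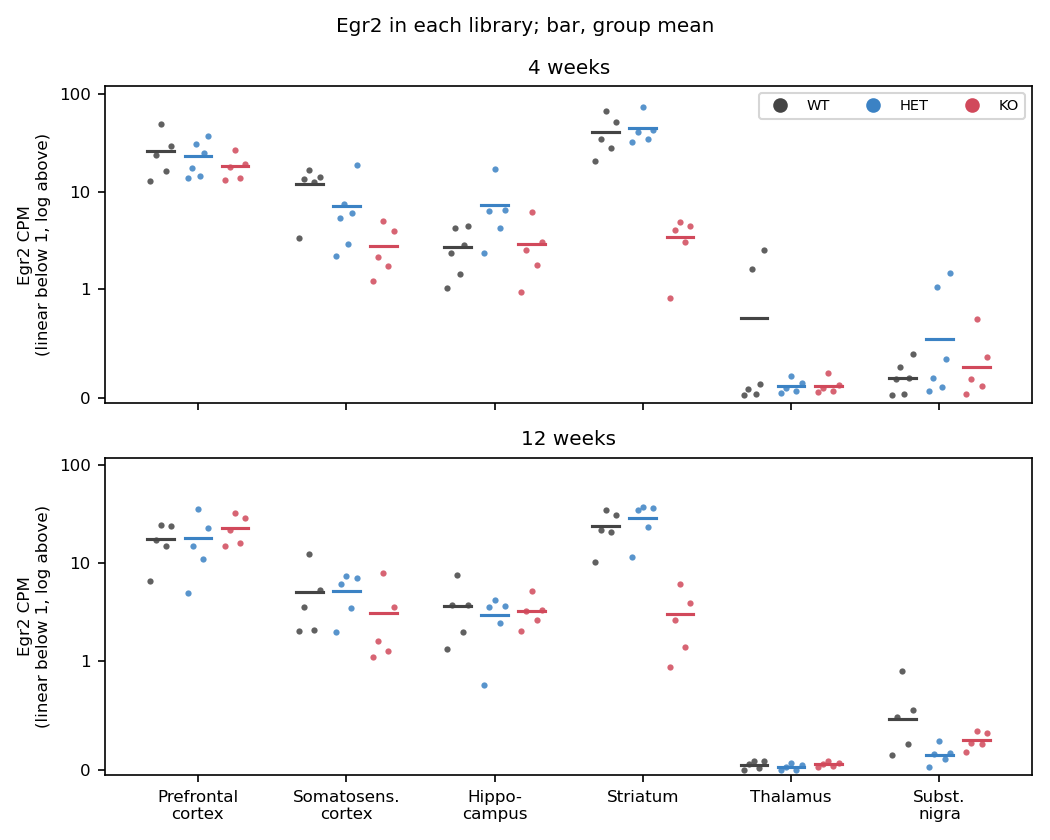
Egr2 in every library, as CPM on a scale that is linear below 1 and logarithmic above, by region, age and genotype; each point is a library and each bar a group mean. KO striatum (red) lies below WT and HET striatum at both ages, from 0.918 to 4.83 CPM at 4 weeks and from 0.946 to 6.09 at 12 weeks, while genotypes overlap in the other regions.

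Egr2 was also low relative to Egr1 within the same striatal libraries. Egr2 counts per 100 Egr1 counts ran from 3.63 to 8.22 in WT, 4.30 to 8.86 in HET and 0.179 to 1.23 in KO at 4 weeks. At 12 weeks the ratio of Egr2 to Egr1 ran from 2.41 to 6.19 in WT, 2.69 to 6.49 in HET and 0.241 to 1.24 in KO. The KO range lay below both other ranges each time. In prefrontal cortex, where WT Egr2 was next highest, the ratio averaged 4.67 ± 1.22 in WT and 5.19 ± 1.29 in KO (SD, n = 5) at 4 weeks, and 4.48 ± 1.34 and 5.46 ± 1.25 at 12 weeks. In hippocampus it averaged 1.45 ± 0.531 (n = 6) in WT and 1.675 ± 0.637 (n = 5) in KO at 4 weeks, and 1.59 ± 0.847 and 1.77 ± 0.515 (n = 5) at 12 weeks. In somatosensory cortex it averaged 2.00 ± 0.890 in WT and 0.707 ± 0.270 in KO at 4 weeks, with overlapping ranges, and 1.04 ± 0.606 and 0.605 ± 0.326 at 12 weeks. In substantia nigra at 12 weeks, where Egr2 was low, it averaged 1.335 ± 0.550 in WT and 0.532 ± 0.171 in KO, again with overlap. Per kilobase of longest transcript, Egr2 made up 5.09% ± 1.72 of the summed level of the 4 EGR genes in WT striatum at 4 weeks and 0.850% ± 0.471 in KO. Egr1 made up 66.35% ± 2.49 in WT and 66.3% ± 3.90 in KO (SD, n = 5). The summed EGR level itself ranged from 149 to 447 CPM per kilobase in WT and from 109 to 181 in KO, so the groups overlapped.

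**Figure D2:**
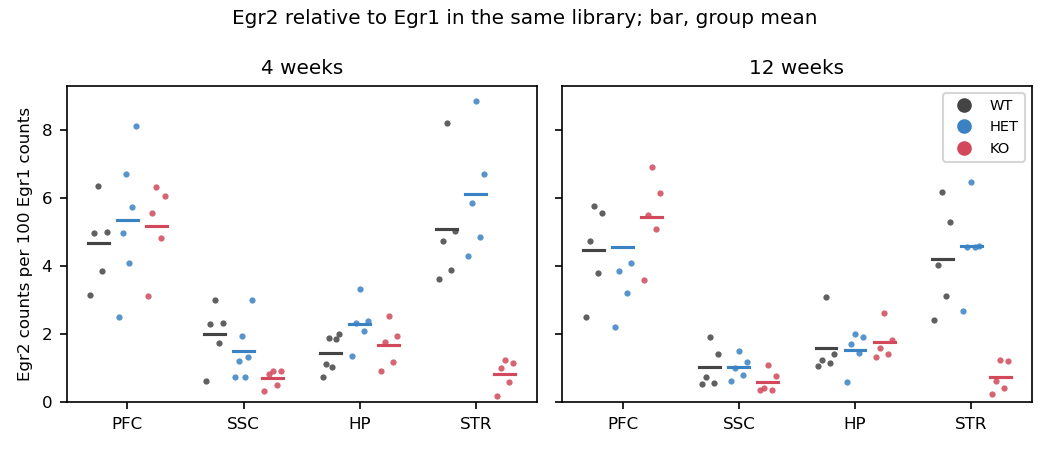
Egr2 counts per 100 Egr1 counts in the same library, on a linear scale, for the 4 forebrain regions (PFC, prefrontal cortex; SSC, somatosensory cortex; HP, hippocampus; STR, striatum) at each age; points are libraries and bars are group means. In striatum the KO libraries reach at most 1.23 and 1.24, below every WT and HET library, whereas KO and WT overlap in prefrontal cortex and hippocampus.

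The other EGR genes stood nearer to WT in KO striatum, and not all on the same side. Egr1, which responds to many stimuli and had the highest level of the family, measured 434, 559, 819.6, 955 and 1312 CPM in WT and 347, 362, 476, 503 and 512 in KO at 4 weeks. At 12 weeks Egr1 measured 422, 537, 571, 591 and 664 CPM in WT and 326, 339, 392, 421 and 491 in KO. The ranges of Egr1 overlapped at both ages, with log2 fold changes of -0.89 ± 0.23 (SE) and -0.50 ± 0.17. Without WT 914, which held 1312 CPM, the 4-week value of Egr1 was -0.65, and without the libraries that stand apart it was -0.62.

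Egr3, an activity-induced gene also needed for muscle spindle formation, measured 93.3, 104, 105, 113 and 167 CPM in WT and 51.6, 59.8, 77.1, 97.3 and 98.9 in KO at 4 weeks. The lowest 2 KO values of Egr3 came from KO 161 and KO 51, which had the highest cortical scores. The log2 fold change of Egr3 was -0.60 ± 0.18 with all libraries and -0.26 without the libraries that stand apart. At 12 weeks, where no striatal library stood apart on the cortical score, Egr3 measured 99.7, 102, 108, 189.7 and 191 CPM in WT and 82.7, 83.1, 90.3, 90.5 and 96.2 in KO. Here all KO libraries lay below all WT libraries by a small margin, and the change was -0.64 ± 0.21.

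Egr4 measured 47.2, 59.2, 104, 109 and 204 CPM in WT and 37.8, 39.8, 70.4, 90.2 and 90.6 in KO at 4 weeks, with a log2 fold change of -0.67 ± 0.35 (SE) that was -0.28 without WT 914. At 12 weeks Egr4 measured 40.5, 55.1, 56.4, 56.9 and 61.4 CPM in WT and 44.5, 55.2, 60.5, 85.8 and 91.7 in KO, a change of 0.32 ± 0.21. The groups overlapped at both ages, and the value was below 0 at 4 weeks and above 0 at 12. HET striatum overlapped WT for all 4 EGR genes at both ages, as the plot of the 6 genes by library shows.

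The NAB genes stood near WT in KO striatum. Nab1 averaged 15.2 ± 0.878 CPM in WT and 17.98 ± 2.67 in KO at 4 weeks, and 15.4 ± 2.43 and 17.5 ± 1.49 at 12 weeks (SD, n = 5). The log2 fold changes of Nab1 were 0.24 ± 0.10 (SE) and 0.19 ± 0.10. The 4-week value of Nab1 was 0.02 without the libraries that stand apart and 0.12 with the cortical score as a covariate. Nab2 averaged 59.5 ± 4.49 CPM in WT and 51.9 ± 8.01 in KO at 4 weeks, and 66.1 ± 3.28 and 62.6 ± 6.28 at 12 weeks. The log2 fold changes of Nab2 were -0.20 ± 0.10 and -0.08 ± 0.08, the first being -0.02 without the libraries that stand apart. Nab2 is uncertain, because its gene overlaps Stat6 by 40 bases, the antisense gene Gm16229 by 1646 and Nemp1 by 1668, all on the opposite strand, and no source used here says whether the counting used strand.

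Of the 6 genes, 5 stood below WT in KO striatum at 4 weeks and 4 at 12 weeks. KO lay entirely below WT for 1 gene (Egr2) at 4 weeks and for 2 (Egr2 and Egr3) at 12 weeks. This held for 1.81% and 3.22% of all genes tested at these ages. Against HET, KO lay entirely below for Egr1, Egr2 and Egr3 at 4 weeks and for Egr2 alone at 12 weeks, where 3.21% and 3.44% of all genes did so. The edgeR test across all genes called 3.35% of genes at 4 weeks and 4.42% at 12 weeks between KO and WT striatum, and since the choice of genes used that contrast, no call is given for the members. Scores for mural and meningeal genes, another possible content of a dissected piece, were 2.81 to 3.33 in KO and 3.41 to 3.91 in WT at 4 weeks, and 2.89 to 3.26 and 3.09 to 3.32 at 12 weeks (8 of 8 genes in the table, summed levels 95.2 to 153.5 and 137 to 189 CPM at 4 weeks). Their part in the EGR values was not tested. Over 10 striatal projection neuron genes, the score ran from 8.77 to 10.3 in KO and from 9.45 to 10.2 in WT at 4 weeks.

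**Figure D3:**
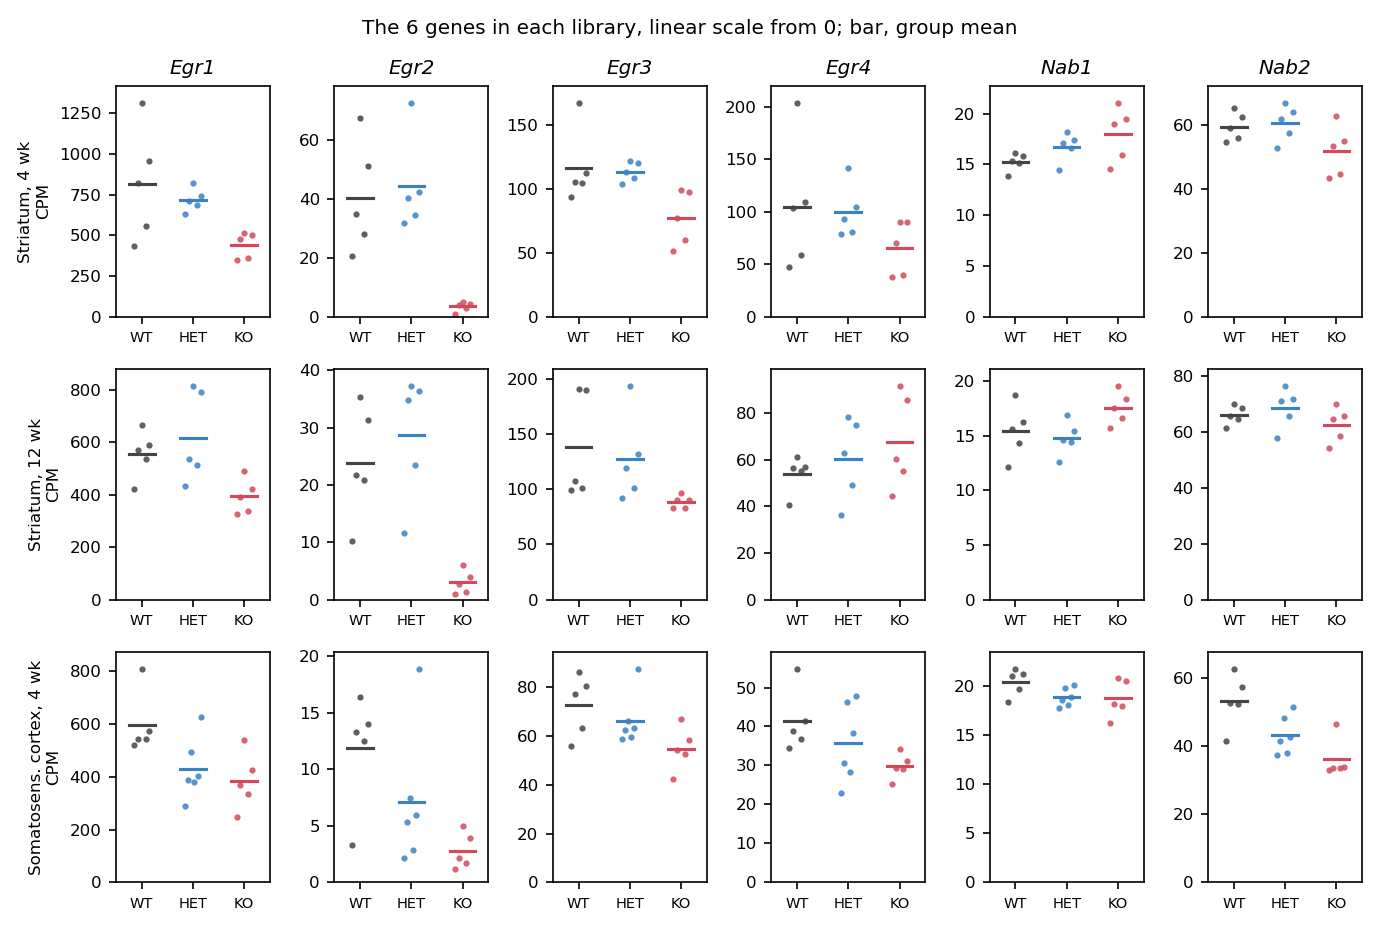
CPM of the 6 genes, on linear axes from 0, in each WT, HET and KO library (points) with the group mean (bar), for striatum at 4 and 12 weeks and somatosensory cortex at 4 weeks. The Egr2 panels show the widest separation of KO from WT in striatum; in the other panels KO and WT overlap or nearly touch, and in somatosensory cortex the KO means of all 6 genes lie below the WT means.

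Outside striatum, which the selection did not use, KO was tested against WT in 5 regions at 2 ages. None of the 58 tests of a member was called by edgeR's quasi-likelihood test after Benjamini-Hochberg adjustment; 16 of the 58 had an unadjusted p under 0.05, and DESeq2 called 2. An unadjusted p under 0.05 was reached by 2.91% to 15.1% of all genes, depending on region and age. Few genes of any kind were called. At 4 weeks the share of all genes called was 0.0564% in somatosensory and 0.0125% in prefrontal cortex, 0.0128% for thalamus, 0.00609% for hippocampus and 0.00617% for substantia nigra. At 12 weeks these shares were 0.0252%, 0.0123%, 0.0064%, 0.00608% and 0.0364%. At 4 weeks, 25 of 29 member values were below 0, and at 12 weeks 12 of 29. Without the libraries that stand apart, 15 of the 58 had an unadjusted p under 0.05, and 24 of the 29 values at 4 weeks were below 0. Members correlate with one another and sample numbers recur across regions, so these tests are not independent of each other.

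In 4-week somatosensory cortex the whole family stood lower in KO, without a call. All 6 members were below WT in the mean, with a median log2 fold change of -0.52, while 47.7% of all genes were below 0. An unadjusted p under 0.05 was reached by 5 of the 6, and by 4.87% of all genes. Egr2 measured 3.31, 12.6, 13.3, 14.0 and 16.4 CPM in WT and 1.22, 1.72, 2.12, 3.90 and 5.01 in KO, with WT 142 inside the KO range. The log2 fold change of Egr2 was -2.10 ± 0.53 (SE), with an adjusted p of 0.309 by edgeR. Nab2 measured 41.6, 52.3, 52.6, 57.3 and 62.7 CPM in WT and 32.9, 33.5, 33.7, 34.0 and 46.4 in KO, and KO 163 lay above the lowest WT library. The change of Nab2 was -0.56 ± 0.11, with an edgeR adjusted p of 0.101 with all libraries, 0.0115 without KO 163 and 0.0153 without WT 142. DESeq2 gave Nab2 an adjusted p of 0.00609.

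Egr1 in the same region averaged 598 ± 119.5 CPM in WT and 384 ± 108 in KO (SD, n = 5), a log2 fold change of -0.64 ± 0.20 (SE). Egr3 averaged 72.6 ± 12.6 and 54.8 ± 8.94 CPM, a change of -0.41 ± 0.13, and Egr4 averaged 41.3 ± 7.96 and 29.8 ± 3.31, a change of -0.47 ± 0.17. Egr4 was the single member whose KO libraries (25.1 to 34.2 CPM) all lay below the WT libraries (34.6 to 54.8), which held for 0.383% of all genes. Nab1 averaged 20.3 ± 1.37 and 18.7 ± 1.90 CPM. HET libraries spread across both ranges, from 22.8 to 47.7 CPM for Egr4. Cortical scores were 6.83 to 7.10 in WT and 6.82 to 7.09 in KO, and mural and meningeal scores 3.63 to 4.36 and 3.80 to 4.09.

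In 4-week prefrontal cortex all 6 members again lay below WT, with a median log2 fold change of -0.49, and 3 had an unadjusted p under 0.05, as had 15.1% of all genes. Nab2 was the closest to a call, at -0.45 ± 0.11 (SE) with an edgeR adjusted p of 0.192. It averaged 61.9 ± 10.8 CPM in WT and 45.4 ± 6.25 in KO (SD, n = 5). The adjusted p of Nab2 was 0.0269 without KO 44, the highest KO library, and 0.0348 by DESeq2. Egr2 ranged from 12.8 to 49.6 CPM in WT and from 13.0 to 26.9 in KO, a change of -0.54 ± 0.34, unlike the separation seen in striatum, though the difference between regions was not tested because the selection used striatum. At 12 weeks Egr2 averaged 17.5 ± 7.37 CPM in WT and 22.8 ± 7.79 in KO.

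Hippocampus, thalamus and substantia nigra gave no call either. Hippocampal Egr2 averaged 2.72 ± 1.42 CPM in WT (n = 6) and 2.88 ± 1.98 in KO (n = 5) at 4 weeks, and 3.65 ± 2.41 and 3.27 ± 1.20 at 12 weeks (SD, n = 5). In thalamus Egr2 was too low to test, with a median of 0.106 CPM in WT and 0.0936 in KO at 4 weeks, and with 2.53 and 1.60 CPM in WT 913 and WT 914. Egr3 and Egr4 in 4-week thalamus had KO values of -1.82 and -1.97 with all libraries and 0.25 and 0.63 without WT 913, WT 914 and WT 23, so these directions turned with the libraries that stand apart. In substantia nigra Egr2 was at most 1.48 CPM in any library.

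**Figure D4:**
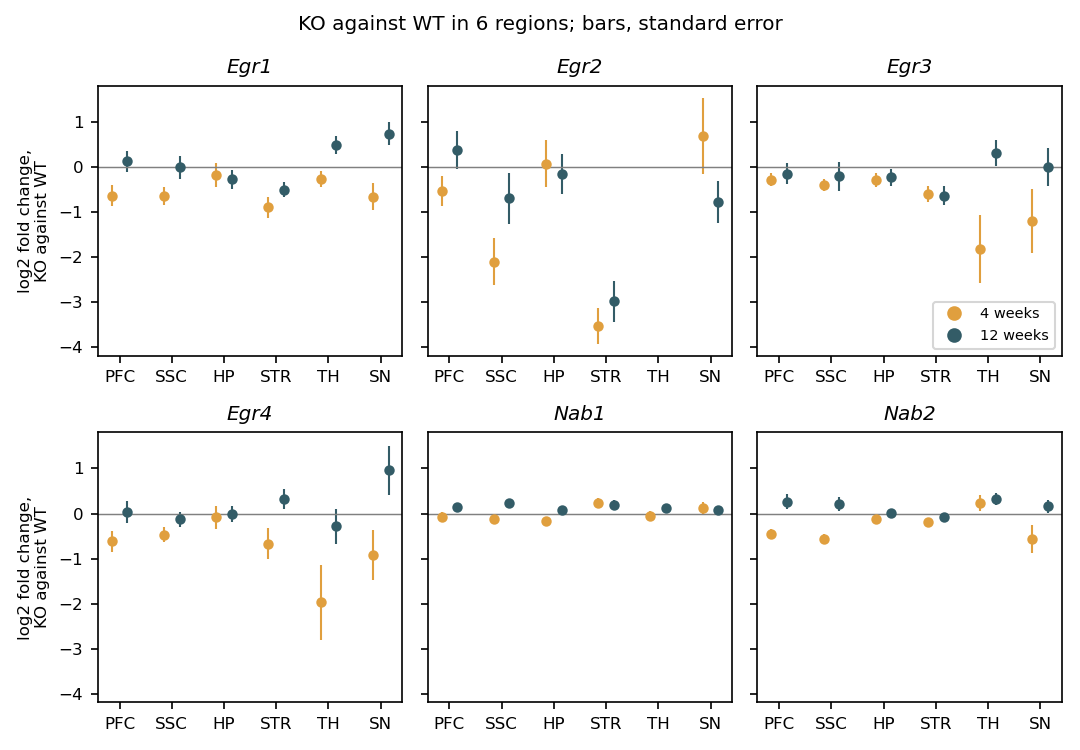
Log2 fold change of KO against WT for each gene in 6 regions (PFC, prefrontal cortex; SSC, somatosensory cortex; HP, hippocampus; STR, striatum; TH, thalamus; SN, substantia nigra) at 4 weeks (orange) and 12 weeks (dark teal); bars are standard errors, and Egr2 in thalamus is not drawn because it was too low to test. Egr2 in striatum lies at -3.53 and -2.99; the low thalamic Egr3 and Egr4 points at 4 weeks rest on WT libraries that stand apart.

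Loss of 1 Akap11 copy was tested in all 6 regions. None of 70 tests of a member in HET against WT was called by edgeR, 12 had an unadjusted p under 0.05 and DESeq2 called 0. Without the libraries that stand apart, 10 had an unadjusted p under 0.05. With all libraries, 1.66% to 16.3% of all genes had such a p, depending on region and age. The share of all genes called at 4 weeks was 0.00648% in striatum, 0.00627% in somatosensory and 0.00626% in prefrontal cortex, 0.00639% for thalamus, and 0% for both hippocampus and substantia nigra. At 12 weeks these shares were 0.0064%, 0.00629%, 0.00613%, 0.0064%, 0.00608% and 0.00606%. In striatum Egr2 averaged 44.3 ± 16.3 CPM in HET and 40.4 ± 18.8 in WT at 4 weeks, and 28.7 ± 11.0 and 23.9 ± 9.86 at 12 weeks (SD, n = 5). The median over the 70 values was -0.01, with 35 below 0 and 35 above. In 4-week somatosensory and prefrontal cortex all 6 members lay below WT in HET as well, with medians of -0.26 and -0.22. These used the same WT libraries as the KO values. In 4-week hippocampus 5 of 6 were above 0, with a median of 0.46. No set of hippocampal libraries was left out by marker genes, and the part of dissected tissue in these values was not tested. Egr2 in 4-week hippocampus was 7.27 ± 5.69 CPM in HET (n = 5), of which HET 941 held 17.0, and its edgeR adjusted p was 0.683. The smallest unadjusted p of the 70 was that of Egr2 in 12-week substantia nigra, at 0.137 ± 0.0888 CPM in HET and 0.462 ± 0.303 in WT (SD, n = 5). Its log2 fold change was -1.68 ± 0.50 (SE), with an edgeR adjusted p of 0.930. In 4-week thalamus, HET values of Egr3 and Egr4 were -1.78 and -2.27 with all libraries (edgeR adjusted p = 0.268 and 0.232). They were 0.30 and 0.32 without WT 913, WT 914 and WT 23, on the other side of 0.

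Whether the KO effect itself differed with age was tested in the 5 regions other than striatum, as the value at 12 weeks less that at 4. No member was called in 29 tests by edgeR, 9 had an unadjusted p under 0.05, and the share of all genes called was 0% in each region. An unadjusted p under 0.05 was reached by 2.84% to 7.50% of all genes across these regions. Of the 29 differences, 25 were above 0, with all libraries and without those that stand apart, where 7 had an unadjusted p under 0.05. Thalamic Egr3 and Egr4 had differences of 2.13 and 1.68 with all libraries, and 0.05 and -0.92 without WT 913, WT 914 and WT 23. The differences with the smallest unadjusted p were those of Nab2, at 0.77 ± 0.21 (SE) in somatosensory cortex (edgeR adjusted p = 1) and 0.72 ± 0.21 in prefrontal cortex (edgeR adjusted p = 0.851).

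On CPM scaled over all regions of an age, the 4 EGR genes had their highest WT mean in striatum and Nab1 its lowest. Nab2 was highest there at 12 weeks. At 4 weeks striatum and prefrontal cortex had 62.6 and 60.8 CPM of Nab2 on this scale (exact permutation adjusted p = 0.706), but 59.5 and 61.9 when scaled within each region, so that their order turned with the scaling. On the scale over all regions, striatum had a 4-week WT mean of 42.2 for Egr2, prefrontal cortex 25.8, somatosensory cortex 12.4, hippocampus 2.56, thalamus 0.740 and substantia nigra 0.181. The 4-week order for Nab1 was the reverse at its ends, where thalamus had 35.8, substantia nigra 28.8, hippocampus 23.5, somatosensory cortex 21.2, prefrontal cortex 20.8 and striatum 16.0. Each neighbouring pair in the order of each gene was compared by an exact two-sided permutation test on log2(CPM + 1), adjusted over 60 pairs, and 25 of the 60 differed, while 42 pairs overlapped in range. This test treats the libraries of 2 regions as separate samples, although sample numbers recur across regions and the labels do not say whether a number is 1 animal. No difference between striatum and the region ranked next was called for any EGR gene at either age. For Egr2 that pair was striatum and prefrontal cortex, with exact permutation adjusted p-values of 0.206 at 4 weeks and 0.433 at 12 weeks. By sample number, Egr2 was higher in striatum for 4 of the 4 WT numbers present in both regions at 4 weeks and for 3 of 5 at 12 weeks. The step from somatosensory cortex to hippocampus was called for Egr2 at 4 weeks (exact permutation adjusted p = 0.0354), and that from prefrontal to somatosensory cortex at 12 weeks (exact permutation adjusted p = 0.0397).

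Other called WT steps lay within the forebrain, between it and deeper regions, and among deeper regions. Egr3 dropped from 64.3 CPM in hippocampus to 1.07 in substantia nigra at 12 weeks, and Egr4 from 18.5 to 0.719 (exact permutation adjusted p = 0.0238 for each, the smallest value reached here). For Nab2, striatum and hippocampus, which ranked next, differed at 12 weeks (68.7 against 49.8 CPM) and did not overlap. Per kilobase of longest transcript, WT striatum at 4 weeks held 182 CPM of Egr1, 48.6 of Egr4, 29.6 of Egr3, 23.1 of Nab2, 13.6 of Egr2 and 3.93 of Nab1. At 12 weeks these levels per kilobase were 124 for Egr1, 25.2 for Egr4, 35.0 for Egr3, 25.6 for Nab2, 8.06 for Egr2 and 3.97 for Nab1. Egr2 was thus the lowest EGR gene of WT striatum per length, at both ages.

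**Figure D5:**
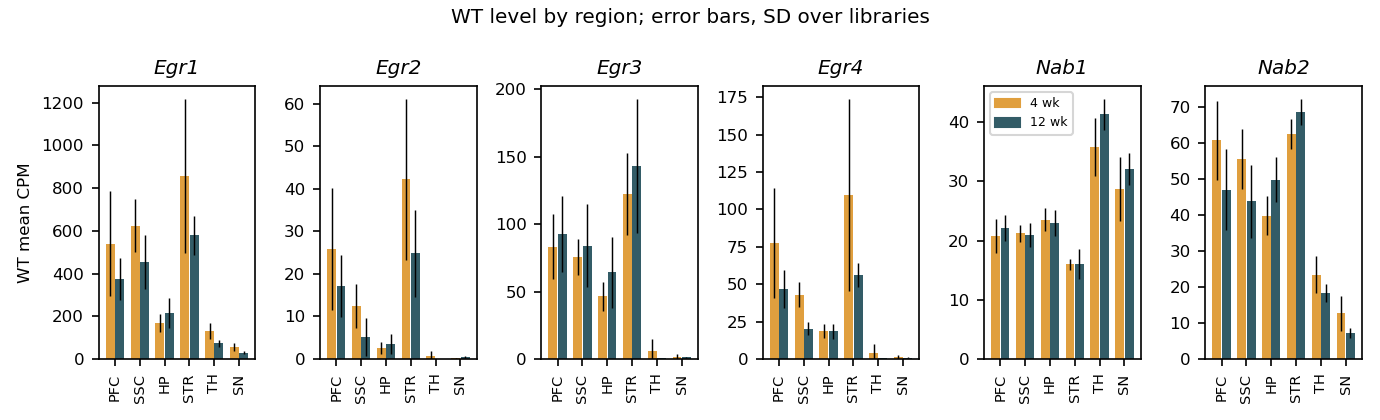
WT mean CPM of each gene by region at 4 weeks (orange) and 12 weeks (dark teal), scaled over all regions of an age, with bars from 0 and error bars of 1 SD over libraries. Egr1, Egr2, Egr3 and Egr4 are highest in striatum (STR) and low in thalamus (TH) and substantia nigra (SN), and Nab1 is highest in thalamus; for Nab2 at 4 weeks, striatum (62.6) and prefrontal cortex (60.8) are close, and their order turns when scaled within each region.

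Between 4 and 12 weeks, several family members fell in WT brain. Of 35 tests over 6 regions, edgeR called 11, all lower at 12 weeks, namely Egr4 in 4 regions, Egr1 in 3, Nab2 in 3 and Egr3 in 1. The shares of all genes called were large as well, at 27.1% in somatosensory and 19.1% in prefrontal cortex, 22.6% for thalamus, 18.6% for substantia nigra, 18.5% for striatum and 17.7% for hippocampus. Age cannot be told apart from differences in how the 2 ages were collected or sequenced. Without the libraries that stand apart, 7 of the 11 calls were left.

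Egr4 in somatosensory cortex fell from 34.6 to 54.8 CPM at 4 weeks to 16.4 to 26.3 at 12 weeks, with no overlap, a log2 fold change of -1.17 ± 0.18 (SE) and an edgeR adjusted p of 1.6e-05. That call held with any 1 library left out. In striatum Egr4 fell by 1.03 ± 0.31 (edgeR adjusted p = 0.0190) and in prefrontal cortex by 0.79 ± 0.26 (0.0316). Without WT 914 these were -0.64 (0.135) and -0.46 (0.188). The striatal call was also lost without 12-week WT 1 (0.0521), and the prefrontal call without 12-week WT 1, WT 3 or WT 5 (0.0884, 0.0613 and 0.0644). Thalamic Egr4 was -2.57 ± 0.69 (0.00785) with all libraries, -1.08 without WT 913, and 0.02 without the 3 WT libraries that stand apart. Thalamic Egr3 was -2.95 ± 0.63 (0.00114) with all libraries and -0.89 (0.0649) without those 3. In WT 913, Egr3 stood at 24.5 CPM and Egr4 at 15.8, against at most 5.53 and 4.16 in the other 4-week WT thalamic libraries.

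Egr1 fell in thalamus by 0.88 ± 0.20 (edgeR adjusted p = 0.00256), and by 0.68 (0.0386) without the libraries that stand apart. In striatum Egr1 fell by 0.63 ± 0.21 (0.0365), which was -0.39 (0.200) without WT 914, and in substantia nigra by 0.93 ± 0.30 (0.0268), and both calls were lost without the libraries that stand apart (0.0798 and 0.0595). Nab2 fell by 0.43 ± 0.15 in each cortical region (edgeR adjusted p = 0.0388 in prefrontal and 0.0281 in somatosensory cortex), each call being lost when any of 5 libraries was left out. Calls were lost without 4-week WT 914 or WT 23 in either region. In substantia nigra Nab2 fell by 0.87 ± 0.26 (0.0183), and by 0.73 (0.0381) without the libraries that stand apart; leaving out WT 23 or 12-week WT 2 or WT 3 gave 0.0526, 0.0548 and 0.0512. Egr2 and Nab1 were called in no region by edgeR with the low-count filter, and Egr2 was -0.83 ± 0.39 in striatum (0.144) and -1.35 ± 0.57 in somatosensory cortex (0.0751, and 0.0414 without 4-week WT 142 or 0.0129 without 12-week WT 3). Hippocampus gave no call for any of the 6.

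Across the 96 libraries of 4 weeks and the 90 of 12 weeks together, after subtracting the mean of each library's own group, Egr2 varied most like Fos (Pearson r = 0.743), Nr4a1 (0.722) and Junb (0.709) among 14089 genes, all immediate-early transcription factor genes. Egr1 varied most like Egr4 (0.682), Nr4a1 (0.671) and Dusp6 (0.625). Egr4 varied most like Junb (0.760), Nr4a1 (0.742) and Fosb (0.733). For Egr3 the first genes were Rin1 (0.788) and Kcnip2 (0.733), for Nab2 they were Spata2l (0.686), Egr1 (0.586) and Dusp5 (0.577), and for Nab1 Cdc37l1 (0.623), Pcdh9 (0.605) and Dlc1 (0.603). These correlations are a description, with no p, over libraries that share regions and differ in depth. Egr2 correlated with Egr4 at 0.597, Egr1 at 0.583, Egr3 at 0.358, Nab2 at 0.329 and Nab1 at 0.166.

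Over the 36 group means, the genes most like Egr2 were Hey1 (r = 0.927), Junb (0.926), Gm15559 (0.924), RP24-134N2.1 (0.924) and Arhgap33 (0.919). Of the family, Egr4 stood at 0.905, Egr3 at 0.856, Egr1 at 0.837, Nab2 at 0.767 and Nab1 at -0.831. Egr2 was selected on its KO striatal value and the group means include KO striatum, so striatal values of these genes are a description only. On CPM scaled over all regions of an age, 4-week striatal Hey1 averaged 73.98 ± 6.93 CPM in WT and 60.35 ± 15.3 in KO (SD, n = 5), and Junb averaged 113 ± 31.9 and 80.4 ± 16.4.

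Other genes of the activity response, taken from lists of named genes, were set beside the family. Of 19 tested early transcription factor genes other than EGR, 0 were called in KO striatum at 4 weeks, with 8 below 0 and a median log2 fold change of 0.07 beside a median of all genes near 0. At 12 weeks 1 was called, Ier5 at -0.31 ± 0.08 (SE), with 4 of 19 below 0 and a median of 0.43. Fos ranged from 14.3 to 46.5 CPM in WT and from 6.69 to 25.2 in KO at 4 weeks, and Npas4, a factor induced by calcium entry, ranged from 22.2 to 104 and from 17.5 to 113. Both overlapped between genotypes, and Npas4 was named after its values were seen. Of 20 effector and feedback genes, Homer1, which encodes a synaptic scaffold, was called lower at 4 weeks (-0.74 ± 0.15), and Rgs2, a regulator of G-protein signalling, higher at 12 weeks (0.69 ± 0.15). These calls belong to the contrast the selection used, in which 3.35% and 4.42% of genes were called.

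Among 20 tested genes upstream of EGR transcription, Elk1, whose protein joins SRF at the CArG box, was called lower in KO striatum at both ages. Elk1 measured 81.4 to 102 CPM in WT, 76.4 to 91.0 in HET and 48.7 to 64.3 in KO at 4 weeks, and 77.9 to 109, 80.9 to 109 and 60.3 to 71.4 at 12 weeks. The KO range lay below both others each time, with log2 fold changes of -0.56 ± 0.08 and -0.47 ± 0.09 (SE). The 2 KO libraries of 4 weeks that did not stand apart, KO 12 and KO 932, held 64.3 and 62.5 CPM of Elk1. Outside striatum Elk1 lay between -0.14 and 0.02 in the 10 comparisons of KO with WT and was called in none. A link between Elk1 and the EGR values was not tested. Srf itself, named after its values were seen, averaged 81.97 ± 20.6 CPM in WT and 71.8 ± 9.32 in KO at 4 weeks. Also called in this list were Rps6ka3, an ERK-activated kinase (-0.36 ± 0.09), at 4 weeks and Map2k1, which encodes the ERK-activating kinase MEK1 (0.22 ± 0.06), at 12 weeks. Of 9 tested partner proteins of EGR and NAB, the acetyltransferase gene Crebbp was called lower at 4 weeks (-0.32 ± 0.05). The 14 genes of a list reported as EGR targets had a median of -0.06 in KO striatum at 4 weeks, with 7 below 0, and of -0.07 at 12 weeks, with 10 below 0.

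In 4-week somatosensory cortex the effector and early factor lists were mostly below 0, as the family was. Of 20 effector and feedback genes 19 were below 0, with a median of -0.41, and 4 were called by edgeR. These were Arc, a synaptic immediate-early gene (451 ± 192 CPM in WT and 113 ± 51.7 in KO, SD, n = 5), and the ERK-pathway and kinase regulators Dusp5, Spry4 and Trib1. Their log2 fold changes were -1.99, -0.98, -0.88 and -1.05, with edgeR adjusted p-values of 0.0223, 0.0325, 0.0325 and 0.0451. Of 19 early transcription factor genes 17 were below 0, with a median of -0.35, and 0 were called, while the 20 upstream genes had a median of -0.01. The 10 partner genes had a median of -0.01, with 5 below 0, and the 13 tested EGR targets one of 0.06, with 4 below 0. Arc, called lower here as an effector, is also in the list of EGR targets. At 12 weeks in that region the effector list had a median of 0.05 and the early factor list 0.10, and 0 genes of either were called. In 4-week prefrontal cortex 18 of 20 effectors were below 0, with a median of -0.32 and 0 calls.

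Egr1 lies on chromosome 18 from 34859823 to 34864984 on the plus strand of GRCm38, and its longest annotated transcript has 4484 bases. Egr2 lies on chromosome 10 from 67535475 to 67542188 on the plus strand (2965 bases), Egr3 on chromosome 14 from 70077203 to 70082614 on the plus strand (3940) and Egr4, read from the minus strand, on chromosome 6 from 85511121 to 85513589 (2148). Nab1 lies on chromosome 1 from 52457294 to 52500679 (3874) and Nab2 on chromosome 10 from 127660918 to 127668568 (2582), both on the minus strand. All are protein-coding genes, and 1 value per gene was deposited for each library.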

How the data were processed

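RNA of microdissected mouse brain samples was sequenced from TruSeq Stranded mRNA libraries, per the labels' protocols. The authors deposited a table of expected counts per gene symbol, made with Salmon on mm10 per the submitters' processing notes; no source used here gives its version or strand setting. Expected counts were rounded to whole numbers. Groups came from the labelled tissue, genotype and age. For each region and age, and for each region over both ages, edgeR 4.0.16 (R 4.3.3) was fitted to all 3 genotypes with filterByExpr, TMM factors and quasi-likelihood F tests, Benjamini-Hochberg adjustment over all genes tested, and a threshold of 0.05; SE is the absolute log2 fold change divided by the square root of F. The fit was checked on simulated data with the same dispersion for every gene and changes only in genes of higher counts. That check does not cover low or highly variable genes such as Egr2. Levels of WT regions were compared by exact permutation (pseudocount 1 CPM). Alternatives were RLE factors, no filter, DESeq2 1.42.0, 2-genotype fits, covariates, a replicate block, and leaving out libraries. Positions came from GENCODE M21 on GRCm38 (95.5% of symbols matched).

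The members and the gene lists were chosen with earlier results of these data known. Genes named beyond the members were list genes past the threshold, at most 5 per list and comparison, genes with the highest correlation with a member among those of at least 1 CPM, and genes that overlap a member. Not every gene chosen in this way is reported here.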

Additional observations from a re-analysis of the deposited data

Results flagged for a closer look

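Of 216 groups of 1 member in 1 region, age and genotype, 22 held a library whose gap to its nearest neighbour was large for the group's range, where chance gives about 1 in 20. The level is in CPM, with that of the nearest other library in parentheses.

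In WT 914 at 4 weeks, Egr1 was 990 (481), Egr3 127 (78.0) and Egr4 144 (70.7) in prefrontal cortex. The same WT 914 held 809 (572) of Egr1 in somatosensory cortex and 167 (113) of Egr3 in striatum. In 4-week thalamus WT 913 held 24.5 (5.53) of Egr3, 15.8 (4.16) of Egr4 and a low 26.4 (35.1) of Nab1.

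HET 931 at 4 weeks held 72.5 (42.4) of Egr2 in striatum, and 18.9 (7.42) of Egr2 and 87.5 (66.2) of Egr3 in somatosensory cortex. HET 941 held 17.0 (6.50) of Egr2 in hippocampus and 2.67 (1.25) of Egr3 in substantia nigra. WT 23 held 5.07 (1.47) of Egr3 in substantia nigra. In 12-week hippocampus Egr3 was 113 (63.3) in WT 2 and 77.6 (56.3) in HET 2, and in 12-week somatosensory cortex it was 151 (70.0) in HET 2.

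Egr4 in thalamus was a low 0.281 (1.01) in KO 932 at 4 weeks and 1.04 (0.630) in WT 4 at 12 weeks. Nab1 was a low 16.3 (21.9) in WT 142 in 4-week prefrontal cortex. Nab2 was a low 40 (51.5) in WT 1 in 12-week hippocampus and 46.4 (34.0) in KO 163 in 4-week somatosensory cortex.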

How the results depend on the processing

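Under the alternatives run, 5 members stood below WT in KO striatum at 4 weeks and 4 at 12 weeks, with Egr2 between -4.33 and -3.27 and between -3.45 and -2.75. With the library subset as a covariate, 4-week striatal Egr1, Egr2, Egr3 and Egr4 were -0.69, -3.65, -0.50 and -0.41. Calls of members outside striatum, KO against WT, were 0 with all libraries, 2 by DESeq2 and 0 to 1 with 1 library left out. Calls of HET against WT, and of the KO effect between ages, were 0 in each alternative. Calls of WT at 12 against 4 weeks were 11, 7 without the libraries that stand apart, 13 by DESeq2 and 9 to 13 with 1 library left out. Thalamic Egr4 between ages turned from -2.57 to 0.021 without those libraries; the cause was not tested. Neighbouring WT regions differed in 24 to 25 of 60 pairs. Thalamic Egr2 was called between ages by DESeq2 (-4.06, adjusted p = 0.00029) and by edgeR without a filter (-3.98, 0.00324). WT 913 and WT 914 held 2.53 and 1.60 CPM of it, beside WT medians of 0.106 at 4 weeks and 0.0476 at 12. The 12-week replicate numbers were not taken as a pairing, since same-numbered libraries correlated above 0.1 in 62 of 90 pairs (median 0.166) and not in all. All 5 pairs did so between WT and KO in hippocampus and between HET and KO in prefrontal cortex. Of the 90, 49 correlated best with their own number, more than a random match among 5 numbers would give. A pairing or batch by number therefore remains possible. With a replicate block, striatal Egr2 at 12 weeks was -2.99 ± 0.48, 4 members stood below WT there, and 0 were called in KO or HET against WT.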
